A study of Mus musculus with 4 samples.

Results

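Genes of cholesterol synthesis and its feedback control were followed through the cells of the mouse prostate and its embryonic precursor. The genes were *Hmgcs1*, *Idi1*, *Fdps*, *Fdft1*, *Sqle*, *Lss* and *Cyp51*, which encode enzymes of the pathway, and *Insig1*, which encodes a regulator of it. They are 8 of the 31053 genes of the count matrices and were taken by name, with earlier results of these data known. All 8 were detected in every matrix, and all 8 passed the filter on low counts in both compartments of the adult prostate.

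Cells make cholesterol from acetyl-CoA through mevalonate, the isoprenoids and squalene. When sterol in the membrane of the endoplasmic reticulum is low, the SREBP transcription factors, above all SREBP-2, are cleaved and switch on the genes of synthesis and of cholesterol uptake. When sterol is plentiful, INSIG proteins hold the SREBP escort SCAP in the endoplasmic reticulum, and because *Insig1* is itself an SREBP target the control forms a loop. Prostate epithelium is known for high lipid and cholesterol content, and in prostate cells androgen is known to act on this pathway.

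Hmgcs1 makes HMG-CoA, the precursor of mevalonate, and Idi1 interconverts the isoprenoid building blocks downstream of mevalonate. Fdps then makes farnesyl diphosphate, and Fdft1 joins farnesyl units into squalene, the step that commits them to sterols. Sqle oxidises squalene, Lss closes it into lanosterol, and Cyp51 removes a methyl group from lanosterol. On GRCm38 with the GENCODE vM21 annotation the members lie at chr13:119690379-119708260 (*Hmgcs1*), chr13:8885501-8892451 (*Idi1*), chr3:89093588-89101959 (*Fdps*), chr14:63145150-63179578 (*Fdft1*), chr15:59315077-59331192 (*Sqle*), chr10:76531588-76557138 (*Lss*), chr5:4081145-4104746 (*Cyp51*) and chr5:28071363-28078662 (*Insig1*). *Fdps*, *Fdft1* and *Cyp51* are on the minus strand and the others on the plus strand. *Fdps* overlaps the gene Gm43738 on its own strand, so reads in the shared stretch could be split or lost in counting. *Fdft1* and *Cyp51* overlap the opposite-strand genes *Ctsb* and *Akap9*, and *Hmgcs1*, *Idi1* and *Lss* overlap short antisense genes.

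The adult mice were P2-Runx1:RFP reporters on the ICR (CD-1) background and over 8 weeks old. In these mice RFP replaces 1 copy of *Runx1* and is driven by its P2 promoter, so RFP- cells carry the same allele as RFP+ cells. EPCAM+ cells were sorted by RFP from 3 lobes, the anterior (AP), ventral (VP) and dorsolateral (DLP), barcoded and pooled before single-cell RNA sequencing, in 3 runs that each used a separate pool of mice. Runs 1 and 2 also held mice castrated for over 4 weeks, with the lobes mixed in run 1 and kept apart in run 2, and run 3 held intact mice only. The embryonic library came from urogenital sinuses (UGS) of ICR embryos at E15.5, taken fresh (day 0) or after 1, 3 or 6 days of explant culture in medium that held 10 µM dihydrotestosterone (DHT).

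Promoter sequences of *Hmgcs1*, *Lss* and *Insig1* are shown because these genes were all higher in the cultured explants than on day 0 and because SREBP-2 acts through short promoter elements. The stretches lie within 250 bases before the transcription start of the RefSeq annotation on GRCm38.p6 and stop before any annotated exon. Each is printed 5′ to 3′ on the plus strand, at chr13:119690101-119690350, chr10:76531355-76531587 and chr5:28071162-28071362 in this order. Capitals mark matches on either strand to TCACNCCAC, a sterol regulatory element, or to CCAAT, the NF-Y box that often lies beside one and reads ATTGG when it is on the minus strand.
Hmgcs1: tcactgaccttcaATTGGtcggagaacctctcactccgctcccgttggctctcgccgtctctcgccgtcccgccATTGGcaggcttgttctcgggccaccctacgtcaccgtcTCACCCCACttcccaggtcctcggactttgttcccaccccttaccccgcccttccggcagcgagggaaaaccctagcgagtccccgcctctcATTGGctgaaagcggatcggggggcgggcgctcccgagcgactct
Lss: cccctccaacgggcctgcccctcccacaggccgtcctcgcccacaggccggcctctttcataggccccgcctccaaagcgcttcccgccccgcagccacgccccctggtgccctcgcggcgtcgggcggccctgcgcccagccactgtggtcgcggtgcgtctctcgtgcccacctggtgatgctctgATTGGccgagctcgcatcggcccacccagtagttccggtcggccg
Insig1: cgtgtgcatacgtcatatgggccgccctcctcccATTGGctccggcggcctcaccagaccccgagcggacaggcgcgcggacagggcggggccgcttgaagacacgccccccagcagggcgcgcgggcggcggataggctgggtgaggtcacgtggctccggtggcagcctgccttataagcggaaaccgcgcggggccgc
*Hmgcs1* holds 1 match to TCACNCCAC, 137 bases before the start, and 3 to CCAAT, at 237, 176 and 45 bases. *Lss* holds 1 match to CCAAT at 62 bases and *Insig1* holds 1 at 216 bases. Of 32851 mouse promoters in the RefSeq table, 1.05% hold TCACNCCAC and 33.8% hold CCAAT in the same window, so the CCAAT matches alone are common. These are matches of letters and were not tested for binding. *Idi1* and *Cyp51* were also searched in this window and held 0 matches to TCACNCCAC, with 2 and 1 to CCAAT. *Sqle*, *Fdps* and *Fdft1* are named only.

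After filtering, 824, 2194 and 1673 cells of adult runs 1, 2 and 3 and 5198 explant cells had a barcode of 1 population. Libraries shared between 0 and 6 cell barcodes in any pair. UMI counts were summed over the basal-like or luminal-like cells of each sorted population and run, which gave 15 basal and 16 luminal sums of at least 10 cells for intact mice, with 205028 to 8714292 UMIs each over all adult sums. *Krt5*, a basal keratin, stood at 691 to 1573 CPM (the UMIs of a gene scaled to the same total in every sum) in basal sums and at 0 to 45.8 in luminal sums. Luminal marker RNA in intact basal sums was mostly 2904 to 17620 CPM, but it reached 52846 in AP RFP+ of run 2 and 184141 and 120978 in VP RFP+ of runs 2 and 3. In intact luminal VP sums the 50 most abundant genes took 65.6% to 68.9% of all UMIs, which lowers the CPM of every other gene, so folds across compartments, treatments and days are given relative to the median gene. The barcode of intact DLP RFP+ cells gave no usable cells in runs 1 and 2, which leaves that group at 1 run.

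**Figure D1:**
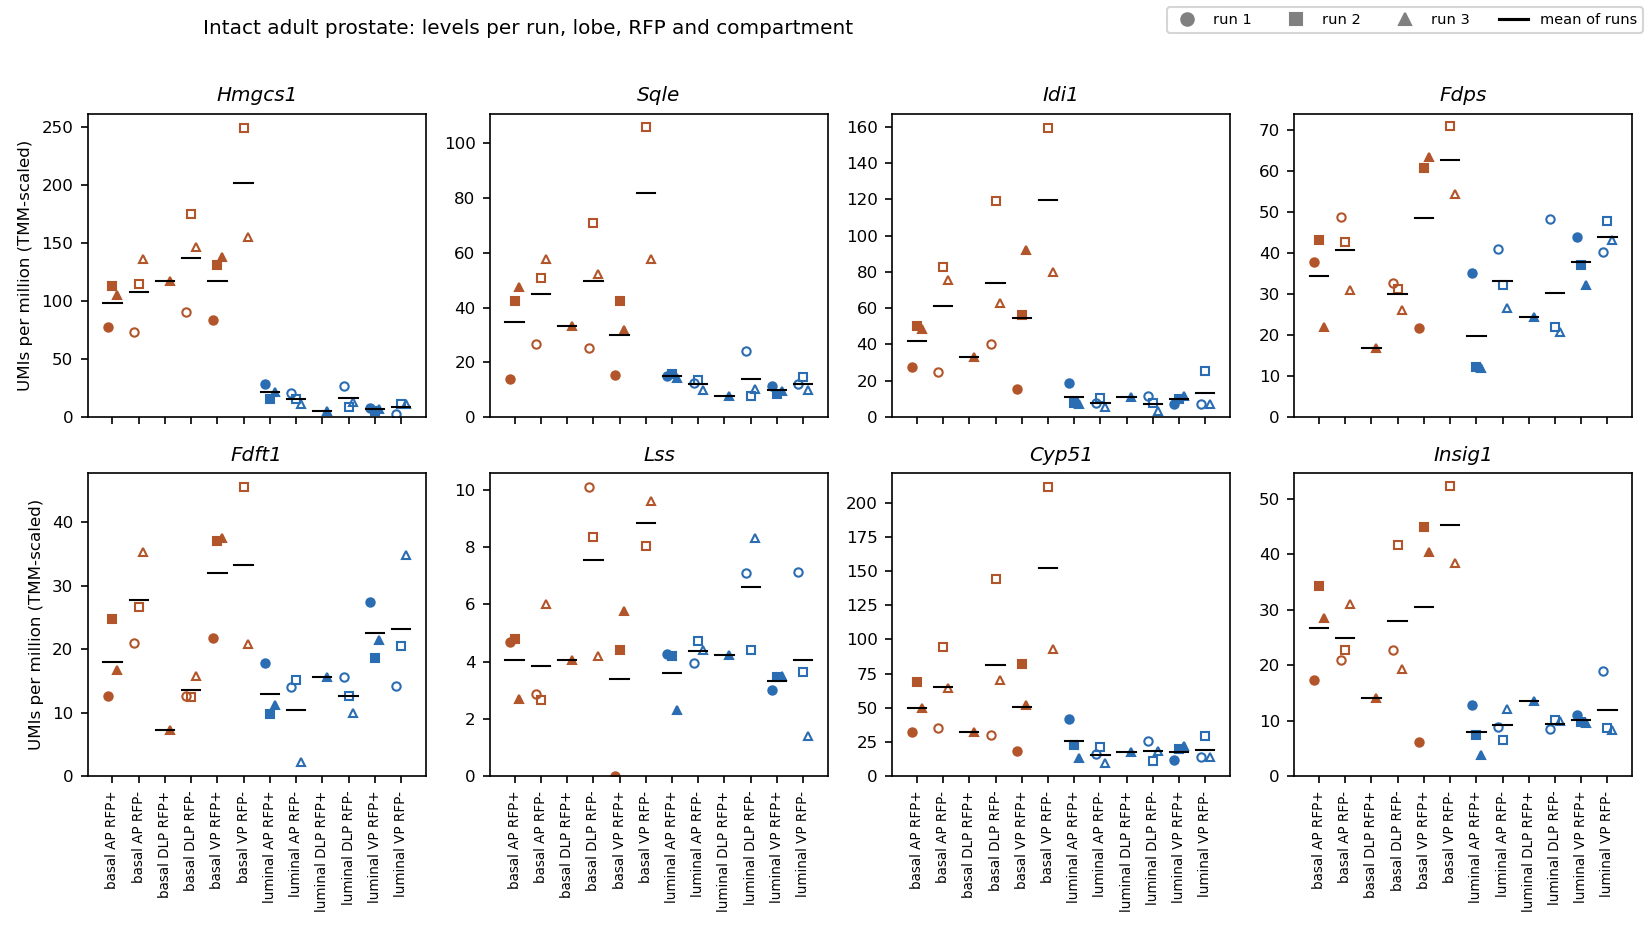
Each panel plots 1 gene in intact adult mice, with a point for each run (circle, square and triangle for runs 1, 2 and 3) and a bar at the mean, in TMM-scaled CPM on a linear axis; basal-like sums are brown, luminal-like sums blue, and RFP- points open. Scaling was separate for the compartments, so heights are to be compared within a colour, where the runs of most groups overlap.

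Basal-like cells carried over 1.5-fold more RNA of *Hmgcs1*, *Idi1*, *Sqle*, *Cyp51* and *Insig1* than luminal-like cells of the same lobe, RFP class and run in most of 15 pairs, and passed that fold for *Fdft1* in 3 and for *Fdps* and *Lss* in 2 pairs each. Summed over the 8 genes, intact basal sums ranged from 215 to 877 CPM with a median of 376, and luminal sums from 72.5 to 295 with a median of 109. The overlap came from run 1, where the basal sum of AP RFP+ was 260 and the luminal sum 295 CPM. In runs 2 and 3 basal sums lay at 242 to 877 and luminal sums at 72.5 to 146. Over 15 matched pairs the fold relative to the median gene had a median of 2.74 (0.911 to 5.17, SD 1.17) and was above 1 in 14. It was smaller in run 1, where 4 pairs gave 0.911 to 1.49, than in run 2, where 5 pairs gave 2.74 to 5.17, and in run 3, where 6 pairs gave 1.77 to 3.60. In the VP RFP+ pairs of runs 2 and 3, whose basal sums held the most luminal marker RNA, the folds were 2.94 and 3.03, and without cells of high UMI totals they were 2.15 and 1.27 (1.96 and 1.03 with finer clusters).

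The members did not share this difference evenly. *Hmgcs1* was the member whose ranges did not overlap, at 85.6 to 242 CPM (median 115) over basal sums and 1.80 to 47.7 (median 11.8) over luminal sums. Its fold was above 1.5 in all 15 pairs, with a median of 8.10 and a range of 1.96 to 17.7. How many of all genes passed that fold in every pair, or had separate ranges, was not counted. The highest luminal value again belonged to AP RFP+ of run 1.

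*Idi1*, the isoprenoid isomerase, ranged from 18.3 to 155 CPM (median 49.6) in basal sums and from 3.87 to 32.2 (median 8.24) in luminal sums, with a median fold of 4.55 (1.03 to 13.9). *Cyp51* ranged from 21.9 to 206 CPM (median 60.3) against 8.16 to 70.7 (median 15.9), with a median fold of 2.66 (0.546 to 9.18). For both genes the lowest basal sums lay inside the luminal range, and the highest luminal value was that of AP RFP+ in run 1.

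*Sqle*, the squalene epoxidase, ranged from 16.0 to 103 CPM (median 42.0) in basal sums and from 5.51 to 35.5 (median 11.5) in luminal sums, with a median fold of 2.79 (0.654 to 6.79). *Insig1*, the feedback regulator, ranged from 7.30 to 50.8 CPM (median 26.9) against 4.90 to 21.6 (median 9.90), with a median fold of 2.58 (0.436 to 5.30). Each of these was over 1.5-fold higher in basal cells in most pairs, *Sqle* in 12 and *Insig1* in 11 of 15.

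*Fdps*, *Fdft1* and *Lss* passed 1.5-fold in few pairs. *Fdps* ranged from 15.9 to 69.0 CPM in basal sums and from 15.4 to 70.9 in luminal sums, with a median fold of 0.867 (0.382 to 2.57). *Fdft1* ranged from 6.82 to 44.3 against 2.82 to 30.2 CPM, with a median fold of 1.09 (0.316 to 10.8) and a fold above 1 in 9 pairs. *Lss* ranged from 0 to 11.9 against 0.816 to 10.4 CPM, with a median fold of 0.876 over the 14 pairs with UMIs in both cell types. For these 3 genes the basal and luminal ranges lay over each other.

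Of 7 members with enough UMIs, 5 were over 1.5-fold higher in basal cells in most pairs and 0 were lower, while 20.4% of 8165 genes were that much higher. Among the other genes of the pathway, *Srebf2*, which encodes SREBP-2, was also higher in basal cells in most pairs (median fold 1.85). *Stard4*, *Acat2*, *Abca1*, *Apoe*, *Elovl6* and *Fads1* were higher by the same measure. *Ebp*, *Nceh1*, *Mbtps1*, *Scap*, *Mylip*, *Npc2* and *Scd2* were lower. Cell type was assigned from the same cells, so no test was made, although the 50 pathway genes had no part in the clustering.

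**Figure D2:**
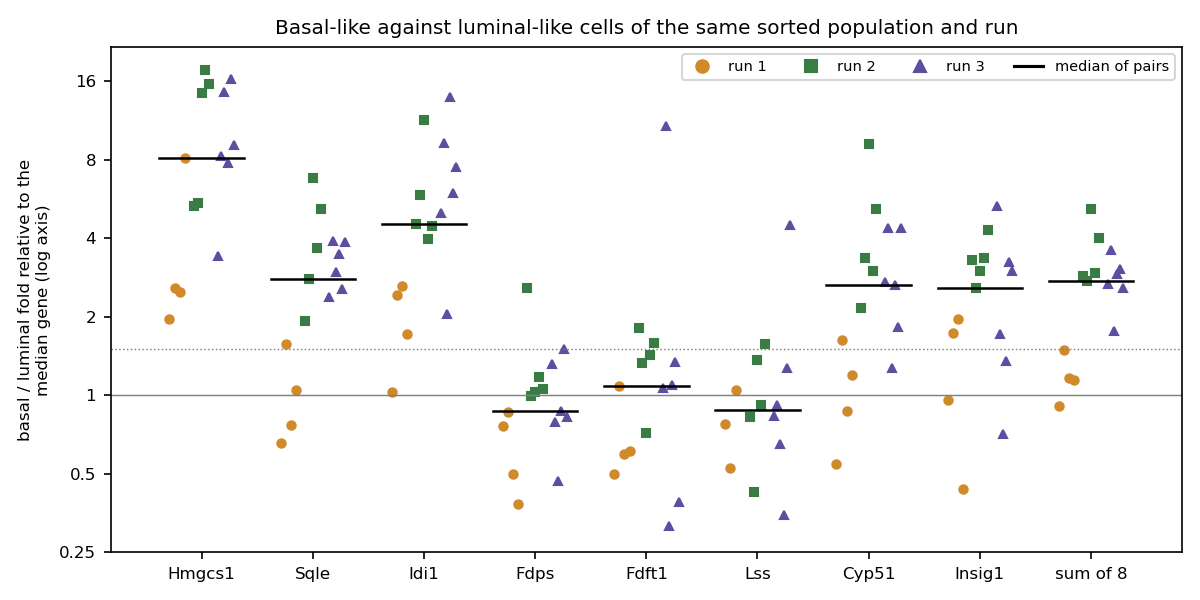
The plot gives, for each member and for the sum of all 8, the fold of basal-like over luminal-like cells relative to the median gene on a log axis, with a point for each of 15 pairs of the same lobe, RFP class and run. *Hmgcs1* lies above 1 in every pair, and *Fdps*, *Fdft1* and *Lss* scatter around 1.

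The first tested question was whether RFP+ and RFP- luminal-like cells of a lobe differ in these genes. In AP the 2 classes lay mostly in different clusters. Cluster 2 held 183 of 211, 82 of 101 and 129 of 146 RFP+ cells in runs 1, 2 and 3. Cluster 3 held 68 of 76, 121 of 149 and 43 of 46 RFP- cells. The part of this in the AP values was not tested. RFP marked its cells: in luminal AP sums *Runx1* itself was at 59.4, 119 and 84.6 TMM-scaled CPM in RFP+ cells of runs 1, 2 and 3 and at 12.3, 13.4 and 4.42 in RFP- cells (log2 fold change 2.95, SE 0.34, edgeR adjusted p = 4.07e-05). Against this large difference, in which 23.7% of 10523 genes were called at an adjusted p under 0.05, 0 of the 8 members were called. Their log2 fold changes ran from -0.69 to 0.67, with 6 above and 2 below 0 and a median of 0.21, beside a median of 0.006 over all genes tested.

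*Cyp51* had the highest of these values. It was at 41.8, 22.8 and 13.1 TMM-scaled CPM in RFP+ cells and 15.8, 21.2 and 9.94 in RFP- cells, and the groups overlapped (log2 fold change 0.67, SE 0.40, edgeR adjusted p = 0.249). *Fdps* had the lowest, at 35.3, 12.1 and 11.9 in RFP+ cells against 40.9, 32.2 and 26.5 in RFP- cells (log2 fold change -0.69, SE 0.37, edgeR adjusted p = 0.198). RFP+ cells were lower for *Fdps* within each run, but the RFP+ value of run 1 lay inside the RFP- range. With run as a block the value for *Fdps* was -0.73 (edgeR adjusted p = 0.028), and without run 1 it was -1.33 (adjusted p = 0.00182).

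*Hmgcs1*, *Idi1* and *Sqle* had log2 fold changes of 0.44, 0.50 and 0.27, *Fdft1* 0.16, *Insig1* 0.03 and *Lss* -0.26 in the same contrast. *Hmgcs1* averaged 21.8 ± 6.42 TMM-scaled CPM (SD, n = 3) in RFP+ and 15.8 ± 4.81 (SD, n = 3) in RFP- luminal AP cells. The interval of its difference reached from -0.27 to 1.15, which includes a 2-fold difference. In simulated data of this contrast, 33% of 2-fold and 85% of 4-fold changes were recovered over 9768 genes.

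Some other genes of the pathway passed the test in AP, but not in a larger share than all genes. The 5 lists cover 50 genes of synthesis, regulation, uptake, efflux and the fatty acid branch. Of these 44 were tested, and 3 were higher and 4 lower in RFP+ cells, where 23.7% of all genes were called. *Mvd*, a step of the mevalonate pathway shortly before Idi1, was lower (-1.56, SE 0.42, adjusted p = 0.0138). *Mylip*, a ubiquitin ligase that limits lipoprotein uptake, was higher (1.24), as was *Insig2*, a relative of *Insig1* (0.72). *Mbtps1*, a protease that cleaves SREBPs, was lower (-0.99), as was *Npc2*, which carries cholesterol out of lysosomes (-0.72).

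In VP the same contrast called 0.314% of genes, 33 in number (89 with run as a block), 0 of the members and 0 of the wider lists (*Mylip* with the block). All 8 members had values below 0, from -0.72 for *Idi1* to -0.07 for *Insig1*, with a median of -0.24 (0.030 over all genes), and the smallest edgeR adjusted p was 0.942. With finer clusters, without run 1 and without run 2, 6 members were below 0 each time. The RFP- sum of run 1 held 10 cells. RFP- cells of run 3 had a median of 15487 UMIs, against 48130 and 41340 in runs 1 and 2. *Hmgcs1* was at 6.61 ± 1.32 TMM-scaled CPM (SD, n = 3) in RFP+ and 8.30 ± 5.14 (SD, n = 3) in RFP- luminal VP cells. *Runx1* was at 24.0, 23.8 and 33.4 against 14.3, 11.8 and 6.97, and did not pass the test either (log2 fold change 1.31, edgeR adjusted p = 0.377).

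The difference between the RFP effects in AP and VP was then tested directly, with the same VP RFP- sums. This test called 4.47% of genes and 0 members, with 470 genes called, and 1250 with run as a block, still without a member. The classes also differed in clusters between the lobes. In VP cluster 1 held 44 of 51, 171 of 183 and 138 of 146 RFP+ cells in runs 1, 2 and 3. It held 5 of 10, 45 of 66 and 28 of 45 RFP- cells. The part of this was not tested. *Idi1* (1.23, SE 0.68, edgeR adjusted p = 0.36) and *Hmgcs1* (1.05, SE 0.56, adjusted p = 0.342) had the highest values, and the interval for *Hmgcs1* ran from -0.15 to 2.24. *Cyp51* had 0.91, *Sqle* 0.68 and *Fdps* -0.44, and the median of the members was 0.46 (-0.031 over all genes). Among the wider lists only *Mbtps1* passed (-1.06, SE 0.29, edgeR adjusted p = 0.0479), with an RFP effect of -0.99 in AP and 0.07 in VP.

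**Figure D3:**
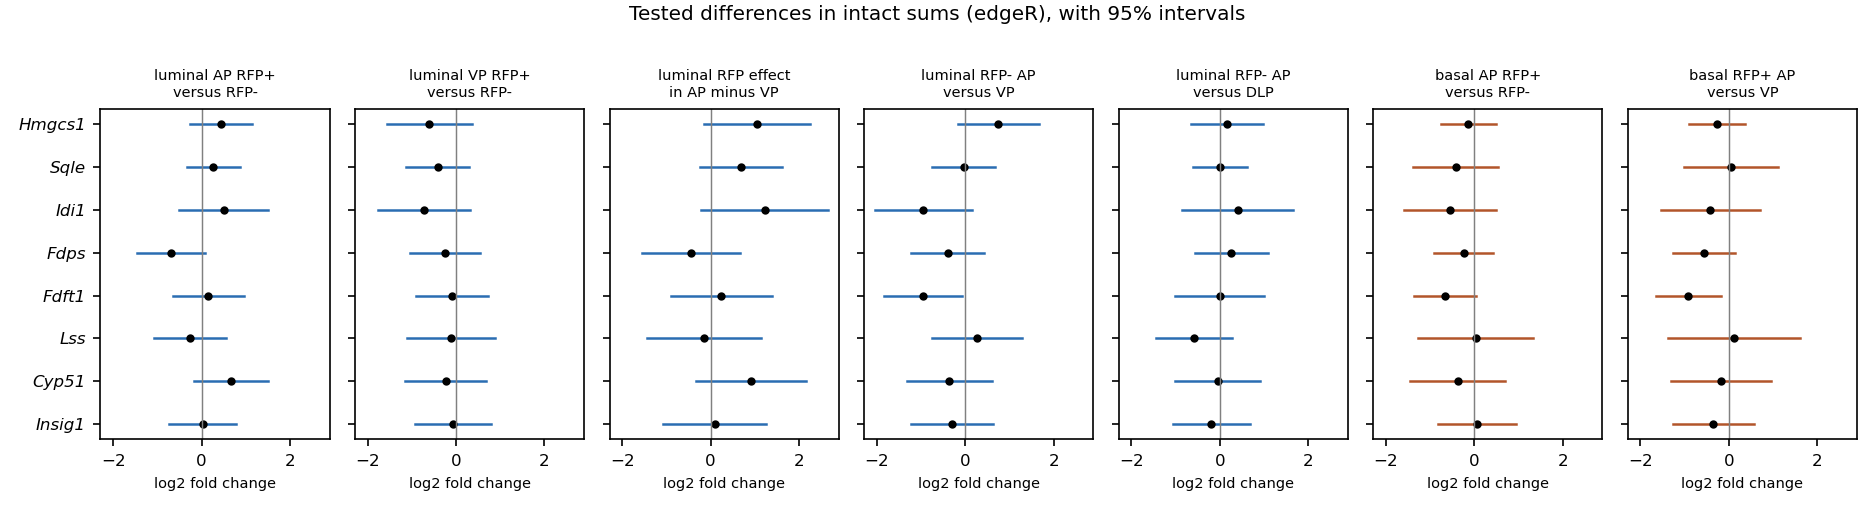
Each panel is 1 tested contrast, with the log2 fold change of each member as a point and its 95% interval as a line, blue for luminal-like and brown for basal-like cells. Nearly all intervals cross 0, and no member passed an adjusted p of 0.05 in any panel.

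Lobes were compared in RFP- luminal-like cells. Those of AP lay mostly in cluster 3 and those of VP mostly in clusters 1 and 8, and the part of this was not tested. Between AP and VP 15.0% of genes were called and 0 of the members, whose median was -0.33 (0.062 over all genes). *Fdft1*, the squalene synthase gene, was at 14.1, 15.1 and 2.21 TMM-scaled CPM in AP and 14.3, 20.5 and 34.9 in VP (log2 fold change -0.95, SE 0.41, unadjusted p = 0.035, edgeR adjusted p = 0.142). AP was lower than VP in each run, though by little in run 1, where the VP sum held 10 cells. The gap was widest in run 3, where both sums were unlike those of runs 1 and 2. VP cells of run 3 had a median of 15487 UMIs (48130 and 41340 in runs 1 and 2). Their median mitochondrial share was 0.349% (2.02% and 2.39%). The 46 AP cells of run 3 had a median of 7658 UMIs (20281 and 22690) and a share of 4.47% (2.60% and 2.72%). The *Fdft1* value of 2.21 there rests on few of the 708199 UMIs of that sum. *Idi1* was also at -0.95, with a wider error (SE 0.52, edgeR adjusted p = 0.256), and *Hmgcs1* went the other way at 0.75 (SE 0.43, edgeR adjusted p = 0.277).

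In the wider lists 5 of 44 genes tested were called, where 15.0% of all genes were. *Scd1*, a desaturase, was at 12.3, 17.7 and 13.3 TMM-scaled CPM in AP against 61.8, 86.9 and 66.9 in VP (log2 fold change -2.31, edgeR adjusted p = 7.6e-05). *Scd2* was lower in AP too (-1.04), as was *Insig2* (-0.83), while *Nceh1*, a cholesteryl ester hydrolase (1.44), and *Acss2*, which makes acetyl-CoA from acetate (1.43), were higher. Between AP and DLP, 1.03% of all genes were called (108, or 366 with run as a block), 0 members in either fit, and *Scd1* of the wider lists (-1.56, edgeR adjusted p = 0.0135). The members ran from -0.58 for *Lss* to 0.40 for *Idi1*, 4 above and 4 below 0.

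In basal-like cells of AP, RFP+ and RFP- sums did not separate in the main edgeR fit. It called 0.0% of 9300 genes, with 107 genes at an unadjusted p under 0.05. DESeq2 called 1 gene, and edgeR called 10 with run as a block and 34 without the filter on low counts. *Runx1* differed by only 0.57 on the log2 scale there. The members ran from -0.66 for *Fdft1* to 0.06 for *Insig1*, with a median of -0.31 (0.006 over all genes). *Hmgcs1* averaged 98.7 ± 18.4 TMM-scaled CPM (SD, n = 3) in RFP+ and 108 ± 31.7 (SD, n = 3) in RFP- basal AP cells, and *Cyp51* 50.1 ± 18.1 and 64.8 ± 29.6.

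Between RFP+ basal-like cells of AP and VP 0.527% of genes were called and 0 members. The number of genes called was 49, and 582 with run as a block, among them of the wider lists *Srebf2* (higher in AP) and *Apoe* (lower in AP), with 0 members. *Fdft1* was at 12.6, 24.7 and 16.7 TMM-scaled CPM in AP and 21.7, 36.9 and 37.5 in VP (log2 fold change -0.91, SE 0.35, unadjusted p = 0.019, edgeR adjusted p = 0.376), and *Fdps* had -0.56. The VP sums of runs 2 and 3 are those with the high luminal marker RNA. Without cells of high UMI totals the 2 values turned to 0.52 and 0.41, and with finer clusters to 0.39 and 0.52. The highest basal levels of all were in VP RFP-, where *Hmgcs1* averaged 202 ± 66.4 (SD, n = 2) and *Cyp51* 152 ± 84.0 (SD, n = 2), a group with only 2 runs that entered no contrast of its own.

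Castrated and intact cells could be compared in run 2, lobe by lobe. Each treatment is 1 pool there, so folds carry intervals for counting error only and no test. As a check of the labels, *Pbsn*, which encodes the androgen-regulated secretory protein probasin, stood at 0.093 to 0.350 of its intact level relative to the median gene in the 4 luminal comparisons.

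In basal-like AP RFP+ cells the pathway was lower after castration. The 8 genes summed to 159 CPM in castrated and 376 in intact cells, a relative fold of 0.502 with a counting interval of 0.417 to 0.601. *Hmgcs1* was at 43.0 against 112 CPM (relative fold 0.458), *Cyp51* at 22.5 against 67.7 (0.396) and *Idi1* at 18.4 against 49.4 (0.444). *Insig1* stood at 11.3 against 33.9 CPM (0.396), *Fdps* at 22.5 against 42.7 (0.629) and *Sqle* at 22.5 against 42.0 (0.639). These 6 of 7 members with enough UMIs were over 1.5-fold lower, where 18.1% of 7564 genes were and 16.3% were as much higher. *Fdft1* was at 0.800 and *Lss* had only 2 and 7 UMIs. Intervals excluded 1 for *Hmgcs1*, *Cyp51*, *Idi1* and *Insig1*.

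Genes around the members mostly had values below 1 in the same cells. The relative fold was 0.652 for *Srebf2* and 0.741 for *Srebf1*, and *Scd1* was at 0.441. *Abca1*, which exports cholesterol, was at 1.47. The intact sum had 109 cells with a median of 9503 UMIs and 52846 CPM of luminal marker RNA, and the castrated sum 117 cells with a median of 5728 UMIs and 7905 CPM. The part of these differences in the result was not tested. Without cells of high UMI totals the relative fold of the sum was 0.508.

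Luminal-like AP cells did not show this. In RFP+ cells the 8 genes summed to 151 CPM in castrated and 122 in intact mice (relative fold 1.15, interval 0.973 to 1.35), and *Cyp51* alone passed 1.5-fold, at 1.52, where 17.5% of genes were that much higher and 17.9% lower. In RFP- cells the sums were 112 and 146 CPM (0.895, interval 0.721 to 1.10). There *Insig1* was higher at 2.11, and *Fdps* (0.647), *Hmgcs1* (0.567) and *Lss* (0.211, on 1 and 20 UMIs) were lower, against 18.6% of genes higher and 20.7% lower. Luminal DLP RFP- cells gave only 39 and 134 UMIs for all 8 genes together (1.16, interval 0.793 to 1.67), and of 3 members with enough UMIs *Cyp51* and *Fdft1* lay above 1.5 with intervals that include 1, against a background of 15.2% higher and 20.2% lower.

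In luminal-like VP RFP+ cells *Fdps* parted from the rest. The median gene itself had 1.89 times the CPM after castration. Relative to it *Cyp51* (1.94), *Sqle* (1.80), *Fdft1* (1.65), *Idi1* (1.59) and *Hmgcs1* (1.51) were higher, where 18.3% of genes were, and *Fdps* was lower at 0.358 (interval 0.250 to 0.501), where 19.0% were. Without this correction *Fdps* was at 24.7 CPM in intact and 16.7 in castrated cells, and *Cyp51* at 13.1 and 47.9. *Scd1* was at 0.248, *Srebf2* at 1.71 and *Abca1* at 1.98. The sum of 8 stood at 1.23 (1.08 to 1.39), and at 0.990 with finer clusters.

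Intact and castrated luminal cells lay mostly in different clusters, and its part in these values was not tested. Of VP RFP+ cells, 171 of 183 intact ones were in cluster 1 and 105 of 126 castrated ones in cluster 7. For AP RFP+ these were 82 of 101 in cluster 2 and 159 of 192 in cluster 4, and for AP RFP- 121 of 149 in cluster 3 and 36 of 49 in cluster 4.

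Basal-like VP RFP+ cells gave 322 CPM in castrated and 404 in intact mice (0.839, interval 0.683 to 1.02). *Idi1* (0.168), *Fdft1* (0.256) and *Fdps* (0.467) were lower and *Sqle* (1.72) higher, against 26.0% of genes lower and 24.3% higher. The intact sum is the one with 184141 CPM of luminal marker RNA, against 7501 in the castrated sum, and without cells of high UMI totals the fold of the sum was 1.10. Castrated DLP RFP+ cells had no intact partner in that run, and *Hmgcs1* stood at 79.6 CPM in their basal-like and 18.2 in their luminal-like cells.

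**Figure D4:**
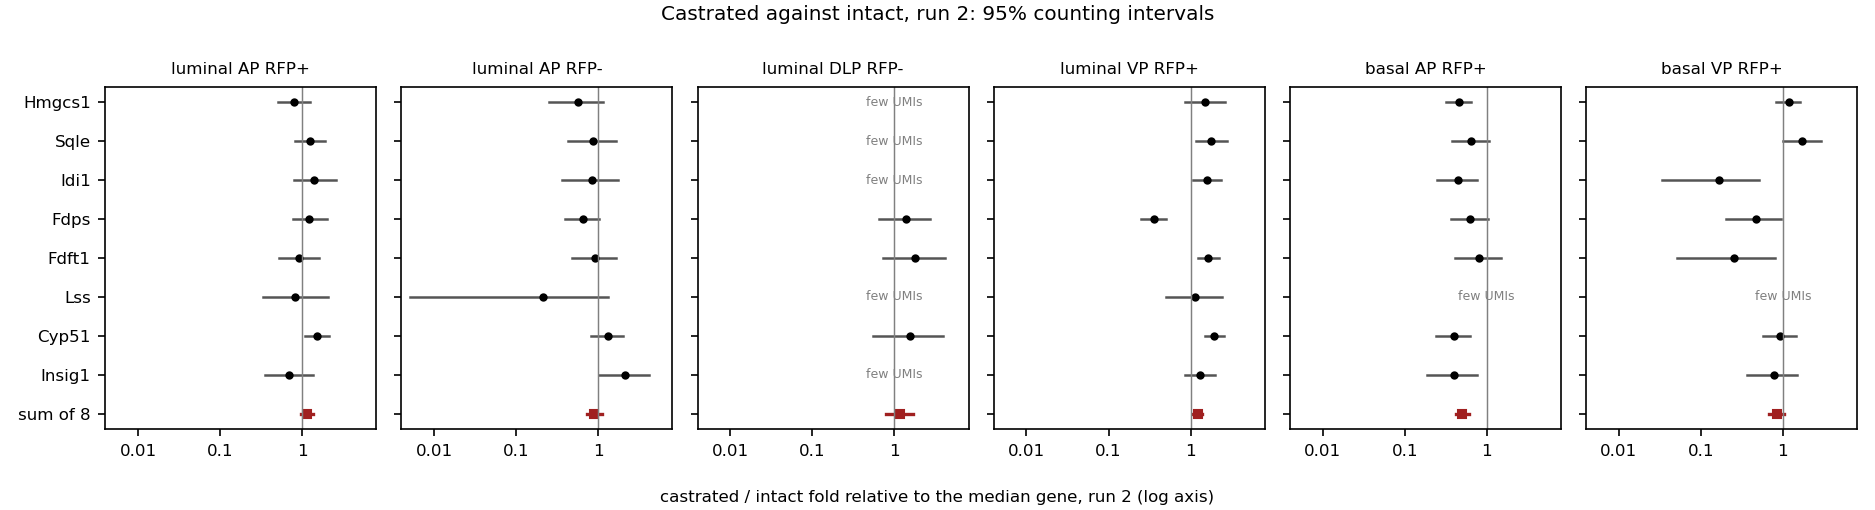
Each panel is 1 population of run 2, with the fold of castrated over intact cells relative to the median gene on a log axis, for each member (black) and for the sum of 8 (red), and lines for the 95% counting interval. In basal AP RFP+ cells all points lie below 1, and in luminal VP RFP+ cells *Fdps* lies below 1 and the others above.

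The explants address how the genes differ between days while prostate buds form in culture. Cells were restricted to clusters with markers of prostatic epithelium, 462, 439, 934 and 1965 cells on days 0, 1, 3 and 6. Cluster 4, with *Psca*, *Nupr1*, *Ly6d* and *Krt4* among its top genes, was named urothelium by the marker lists and left out. It held 8, 40, 110 and 84 cells on these days. The paper lists these genes for its cluster C2 of the developing prostatic epithelium. Together the 8 genes stood at 499 CPM on day 0, 972 on day 1, 1288 on day 3 and 1134 on day 6. The largest step was that over the first day (relative fold 2.01, interval 1.95 to 2.08), followed by a smaller one to day 3 (1.40 over day 1, 1.37 to 1.44) and a slightly lower level on day 6 (0.899 of day 3, 0.884 to 0.914).

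Each of the 8 genes was over 1.5-fold higher on day 1 than on day 0, where 8.98% of 12373 genes were. *Hmgcs1* went from 107 to 219 CPM (relative fold 2.11) and *Idi1* from 60.2 to 137 (2.35). *Fdps* went from 75.4 to 191 (2.62), and *Fdft1* from 42.1 to 74.9 (1.84). *Sqle* went from 58.5 to 88.3 CPM (1.56), the smallest fold of the 8. *Lss* went from 4.40 to 12.6 (2.95), *Cyp51* from 122 to 191 (1.61) and *Insig1* from 28.5 to 58.5 (2.12).

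From day 1 to day 3 *Fdps* (276 CPM on day 3), *Insig1* (85.7) and *Lss* (18.3) were over 1.5-fold higher again, where 8.12% of genes were. *Hmgcs1* reached 305, *Cyp51* 244, *Idi1* 177, *Sqle* 106 and *Fdft1* 77.8 CPM. On day 6 every member was below its day 3 value, *Hmgcs1* at 273 and *Fdps* at 224, but 0 members were over 1.5-fold lower, where 6.5% of genes were. Compared with day 0, all 8 were still over 1.5-fold higher on day 6 (2.53 for the sum, 2.46 to 2.60), where 16.1% of genes were.

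Other genes of the pathway were followed over the same days. Of the SREBP genes, *Srebf2* had a relative fold of 1.41 on day 1 and *Srebf1* of 0.834 (interval 0.68 to 1.02). The desaturase gene *Scd1* had 6 UMIs on day 0 and 105 on day 1. The exporter gene *Abca1* was lower on the later days, going from 12.3 to 3.86, 1.66 and 2.25 CPM. By list, 14 of 20 synthesis genes, 4 of 7 uptake genes, 4 of 9 fatty acid genes and 1 of 7 regulation genes with enough UMIs were over 1.5-fold higher on day 1 and 0 were lower, while 1 of 6 efflux and storage genes was higher and 2 were lower. Over all genes 8.98% were higher and 8.02% lower.

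In cluster 2 the 8 genes went from 495 CPM on day 0 to 974 on day 1. This cluster held 460 of the 462 day 0 cells and 382 of the 439 day 1 cells compared above. Its values are therefore largely that same comparison, and with 30 day 3 cells and 0 day 6 cells it does not cover the later days. Outside the prostatic clusters, the 8 genes went from 806 to 1696 in the mesonephric-like cluster 5. Mesenchyme-like cells went the other way, from 744 to 544. A cluster of 122 day 1 cells led by stress genes stood at 444. The marker lists named it prostatic epithelium, but its score of 0.043 was under the limit of 0.1, so it was left out of the day 1 values above. The share of cells outside G1 was 35.9% on day 0, 49.2% on day 1, 46.5% on day 3 and 37.6% on day 6, and in G1 cells alone the fold of day 1 over day 0 was 2.19. There was 1 barcode for each day in 1 library, and time in culture, medium and DHT cannot be told apart.

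**Figure D5:**
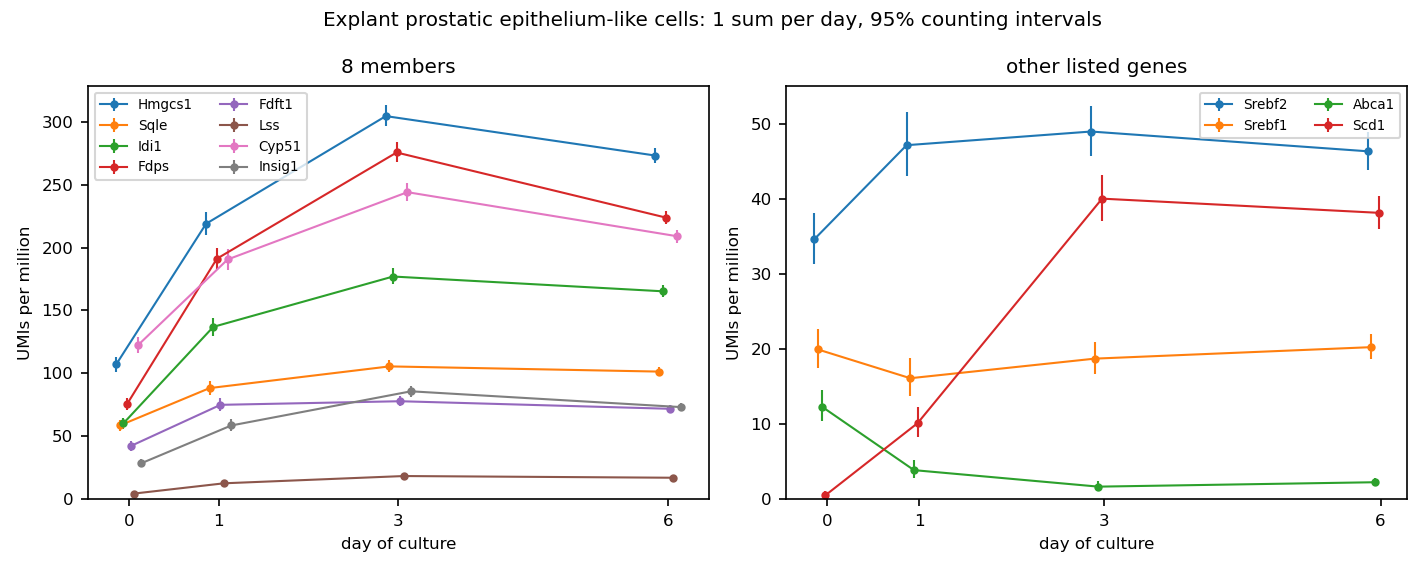
The plot gives the CPM of each member (left) and of 4 other genes of the pathway (right) in prostatic epithelium-like explant cells on days 0, 1, 3 and 6, with 95% counting intervals. All 8 members are higher on each day up to day 3, and lie lower on day 6 than on day 3.

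Genes that tracked the members were sought over the 40 adult sums, castrated ones included, by the correlation of log2(CPM + 1) with the summed members. The 8 closest of 7072 genes were *Actr3* (Pearson's r = 0.909), *Anapc15* (0.894), *Tfdp2* (0.891), *Rheb* (0.891), *Sat1* (0.884), *Tmed5* (0.880), *Slc25a5* (0.880) and *Smarca2* (0.878). These sums share libraries and fall into basal and luminal ones, and *Krt5*, the basal marker, reached 0.819. Over the 18 basal sums the closest of 7137 genes was *Mum1l1* (0.852), with *Msmo1*, a sterol demethylation gene, in place 3 (0.817) and *Stard4*, a sterol carrier gene, in place 8 (0.734), while *Krt5* had -0.17. Places 4 to 7 went to *Higd1a*, *Zranb2*, *Ssr3* and *Acsl4*, which are in none of the lists. Over the 22 luminal sums the closest of 6601 genes was *Ube2r2* (0.913), and *Msmo1* was in place 863 (0.755). These CPM were not set relative to the median gene, and the part of the most abundant genes of VP was not tested. Among the members themselves the median of the 28 pairwise correlations was 0.535 over basal sums and 0.328 over luminal sums.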

How the data were processed

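The authors sorted EPCAM+ cells by RFP and lobe, labelled each sorted population with a lipid-anchored barcode (MULTI-seq), and ran the pooled cells on the 10x Genomics platform. The deposited matrices hold raw UMI counts per gene and cell, made by the authors with Cell Ranger 3.1.0 on mm10 (GRCm38), and deposited counts of the sample barcodes per cell. A UMI marks 1 captured molecule, and 3′ tags are counted, so levels are not divided by gene length. Adult cells with 750 to 7500 genes and at most 10% mitochondrial UMIs, and explant cells with at least 1000 genes and at most 7.5%, were kept. The study's text gives the upper adult limit in UMIs, but it was applied here to genes, since assigned adult cells then had a median of 9750 to 13055 UMIs per run and a limit of 7500 UMIs would have removed most of them, and the other reading was not run. A cell was given to a population by the study's barcode thresholds, and cells with more than 1 barcode were left out as doublets. In runs 1 and 2, where the intact DLP RFP+ barcode failed, the paper also removed doublets predicted by DoubletFinder. That step was not run here, so doublets with such unlabelled cells could remain. Matrices held 2612, 6034, 3028 and 7474 cells and 35051876, 86381807, 40087244 and 121090404 UMIs (runs 1, 2 and 3, explants).

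Cells were clustered with Seurat 5.3.0 without the 50 genes of the pathway lists and called basal-like or luminal-like from marker lists. Counts were summed per run, population and cell type (at least 10 cells), and 7 contrasts were tested with edgeR 4.0.16 (quasi-likelihood, TMM scaling, filterByExpr, Benjamini-Hochberg adjusted p under 0.05 over all genes of a compartment). Alternatives included DESeq2 1.42.0, a block for run, no filter, other clusters, and leaving out each run. Runs are separate pools of mice. The main fit had no term for run, so its p-values measure the spread of sums within groups of at most 3 pools. This spread was estimated over all intact sums of a compartment. Populations of a run share a library and its mice and so are paired by design, and deviations from group means correlated at 0.20 to 0.84 over 13 basal pairs and at 0.04 to 0.75 over 15 luminal pairs of populations. The main fit leaves this pairing out, and the block for run takes it in. With the block, 3564 genes in place of 2490 were called in luminal AP RFP+ against RFP-. Basal against luminal, castrated against intact and explant days have no test: their folds are ratios of CPM divided by the median ratio of all genes with 20 or more UMIs in both sums together, read at 1.5-fold, with exact 95% counting intervals, which cover counting error only.

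The test was also run on simulated data with 200 changed genes. These were drawn after the luminal fit, with its spread and 1 mean per gene, and without pairing of runs. Members and pathway lists were chosen with earlier results of these data known. Named were all members, the called list genes (at most the 6 with the largest change per contrast), fixed pathway genes in the untested comparisons, and the 8 genes with the highest correlation, among genes of at least 10 CPM. List genes named for basal against luminal cells were added after their values were seen. Some genes that this rule names are not reported here. R 4.3.3, numpy 2.4.6, scipy 1.17.1 and pandas 2.3.3 were used.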

Additional observations from a re-analysis of the deposited data

Results flagged for a closer look

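The RFP effect on *Mbtps1* in luminal-like cells differed between lobes by the interaction test of edgeR, at -1.06 on the log2 scale for AP minus VP (adjusted p = 0.0479). In luminal AP sums *Mbtps1* was at 32.8, 26.5 and 30.0 TMM-scaled CPM in RFP+ cells and 59.4, 47.5 and 75.1 in RFP- cells, without overlap, and in VP at 59.4, 47.5 and 44.6 against 38.0, 51.4 and 50.2, which overlap.

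For *Sqle* and *Cyp51* the log2 ratio of RFP+ to RFP- cells had the same sign in every run of a population and the opposite sign in every run of another. For *Sqle* it averaged 0.34 over 3 runs in luminal-like AP cells and -0.50 in basal-like AP cells, a difference of 0.83 that was not tested. In luminal-like VP cells it averaged -0.30, with -0.05, -0.81 and -0.04 in runs 1, 2 and 3. Against these cells the difference was 0.64, and the interaction test of edgeR did not call it (0.68, SE 0.44, adjusted p = 0.451). For *Cyp51* the averages in AP were 0.63 in luminal-like cells (1.40, 0.11 and 0.40 by run) and -0.33 in basal-like cells, a difference of 0.96 that was not tested.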

How the results depend on the processing

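Of the summary values recomputed under the alternatives, 121 stayed within their limits and 14 moved. With a replicate block for run, 1 member (*Fdps*) was called in luminal AP RFP+ against RFP- in place of 0, and leaving out 1 run gave 0 to 1 members (1 without run 1). In no other contrast was a member called under any alternative run. Among named members, leaving out 1 run gave -0.0024 (run 1) to 1.13 for *Cyp51* in AP RFP and -1.17 to 0.46 (run 2) for *Idi1* in VP RFP, and in basal RFP+ AP against VP *Fdft1* turned to 0.39 and *Fdps* to 0.52 at the finer clustering and to 0.52 and 0.41 without cells of high UMI totals. The cause was not tested. For other named genes of the lists, 37 of 168 values lost the threshold and 3 gained it.

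Castrated over intact, luminal VP RFP+ cells gave 0.990 at the finer clustering, and basal VP RFP+ cells 1.10 without cells of high UMI totals. In explants day 1 over day 0 was 1.80 with all assigned cells and 2.19 in G1 cells, day 3 over day 1 was 1.32 with all assigned cells and 1.34 without high UMI totals, and day 6 over day 3 was 0.915 with all assigned cells and 0.857 in G1 cells. Day 6 over day 0 was 2.18 and 2.65, and day 3 over day 0 was 2.38 and 3.09, in all assigned and in G1 cells. The G1 alternative was chosen after seeing the data.

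The number of genes called moved most with the block (0 to 10, 33 to 89, 49 to 582, 108 to 366 and 470 to 1250 in 5 contrasts), without the filter (34, 127, 381, 302 and 712 in these) and without a run: leaving out run 2 left 777 in luminal AP RFP, 499 in AP against VP, 5 in the interaction, 4 in AP against DLP, and 0 in VP RFP and basal AP against VP. Leaving out run 3 left 1500, 697, 62, 11, 0 and 0 in the same order. At 3 runs and few UMIs per gene, 2-fold changes of a member were often below what these sums can show.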
